A study of Rattus norvegicus with 6 samples.

Results

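The genes described here encode the proteins of the mitochondrial ribosome whose symbols begin with Mrpl (large subunit) or Mrps (small subunit) followed by a number. They were chosen by symbol alone, among probe sets annotated with exactly 1 gene, and numbered 76 of 14217 genes on the array, read by 100 of 31042 probe sets. By name, 49 genes belonged to the large subunit and 27 to the small subunit. Expression was measured in peripancreatic fat, a visceral depot next to the pancreas, of 6 Wistar rats, an outbred strain, with 1 Affymetrix array for each rat. Lean rats 14, 18 and 19 ate standard chow. Obese rats 29, 32 and 42 had been fed high-caloric cafeteria food over 30 days. The labels gave neither the age nor the sex of the rats, and they marked every array except that of obese rat 42 as a re-analysis of an earlier sample. Each array came from a different rat, so the tests rest on the spread among 3 rats of each diet, and the number of arrays limits the precision. In whole tissue, fewer cells of a type and less RNA per cell cannot be told apart.

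The mitochondrial ribosome translates the few respiratory chain and ATP synthase subunits that the mitochondrial genome encodes. Its small subunit holds the mRNA and decodes it, and its large subunit joins the amino acids and releases the new chain next to the inner membrane. All of its proteins are encoded in the nucleus, made in the cytosol and imported. Many descend from bacterial ribosomal proteins, and others are specific to mitochondria. In white adipocytes, mitochondria supply precursors and energy for the synthesis and storage of fat.

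The promoters of the genes were compared because the products of these separate genes meet in the same particle. RefSeq promoter windows on assembly GRCr8, from 250 bases before to 50 bases after the start, were at hand for 62 of the 76 genes. Counts are of genes, and a gene with more than 1 window, as 2 of the 62 had, counted if any window held the letters. The letters CCGGAAG, read by ETS factors such as GABPA, stood on either strand for 20 of the 62 genes (32.3%). The shares were 15.4% of the 11700 genes of the array with a window and 9.63% of all 27457 genes with a window. The letters AAGATGG, part of the YY1 site, were found for 15 genes (24.2%), against 8.22% of the array's genes and 7.77% of all genes with a window. These letters contain ATG, which also opens a coding sequence. For the other motifs the shares were closer. GCGCATG, part of the NRF1 site, was found for 6 genes (9.68% against 6.06% of the array's genes), CCAAT for 27 (43.5% against 38.6%) and the E-box CACGTG for 7 (11.3% against 9.38%). Both subunits held the first pair of motifs, with CCGGAAG for 13 of 41 large and 7 of 21 small subunit genes and AAGATGG for 9 and 6. A match is a description of the letters and not a measured binding site.

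Printed next, 5′ to 3′ with motif matches in capitals, are 4 windows: 3 of small subunit genes whose values follow, and 1 that holds the shared start region of a large and a small subunit gene. Mrps18b (chr20:2842756-2843055 on the plus strand) held an E-box, the NRF1 letters on both strands with overlap, an ETS match and a YY1 match. Mrps7 (chr10:101342392-101342691 on the plus strand) held the YY1 letters just after its start. Mrps5 (chr3:135274083-135274382 on the plus strand) held only a CCAAT box, read on the other strand. Mrpl46 (chr1:142116981-142117280 on the minus strand) held the YY1 letters after its start, and the start of Mrps11 lies in the same window, on the other strand.
Mrps18b: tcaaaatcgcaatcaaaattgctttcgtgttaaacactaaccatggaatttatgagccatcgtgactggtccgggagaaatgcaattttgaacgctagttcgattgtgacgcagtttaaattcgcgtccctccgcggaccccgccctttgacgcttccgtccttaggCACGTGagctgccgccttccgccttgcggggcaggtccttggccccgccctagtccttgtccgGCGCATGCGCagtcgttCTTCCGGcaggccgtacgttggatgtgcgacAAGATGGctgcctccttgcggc
Mrps7: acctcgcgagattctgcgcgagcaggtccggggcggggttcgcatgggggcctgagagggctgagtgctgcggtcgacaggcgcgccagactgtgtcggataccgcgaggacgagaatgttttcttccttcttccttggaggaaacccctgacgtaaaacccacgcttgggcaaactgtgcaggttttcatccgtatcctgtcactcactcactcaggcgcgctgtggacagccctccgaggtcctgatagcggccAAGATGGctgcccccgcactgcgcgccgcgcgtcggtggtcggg
Mrps5: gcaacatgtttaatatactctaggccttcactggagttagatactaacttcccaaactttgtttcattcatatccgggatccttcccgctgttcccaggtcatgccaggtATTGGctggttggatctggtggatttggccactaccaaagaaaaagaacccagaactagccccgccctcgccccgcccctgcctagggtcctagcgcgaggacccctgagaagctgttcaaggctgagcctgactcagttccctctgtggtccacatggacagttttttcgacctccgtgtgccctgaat
Mrpl46: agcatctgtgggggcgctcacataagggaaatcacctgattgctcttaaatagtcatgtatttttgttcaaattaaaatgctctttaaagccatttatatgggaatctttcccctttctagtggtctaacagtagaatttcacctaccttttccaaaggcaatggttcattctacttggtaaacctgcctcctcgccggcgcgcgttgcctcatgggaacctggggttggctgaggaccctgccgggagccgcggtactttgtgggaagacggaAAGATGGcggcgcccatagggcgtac

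A start on the other strand within 1000 bases upstream was found for 18 of the 62 genes (29%), against 14.6% of the array's genes with a window. The distance between the starts ran from 44 to 996 bases. Mrpl46, of the central protuberance of the large subunit, and Mrps11, of the small subunit, are such a pair, with 234 bases between their starts on chromosome 1. Mrpl47 lay 244 bases from Ndufb5, which encodes a complex I subunit. For 14 of the 18 genes the partner was on the array, and 0 partners had an unadjusted limma p under 0.05, which 13.4% of all genes had.

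Array medians lay between 5.63 and 5.68. Arrays of the same diet correlated at 0.983 to 0.991 and those of different diets at 0.98 to 0.989. All 7 adipocyte markers stood far above the array medians, with Adipoq, the adiponectin gene, at 12.42 to 12.83. The mean level of the 7 adipocyte markers, as a deviation from each gene's mean over 6 arrays, was -0.335 to -0.164 on lean and 0.058 to 0.382 on obese arrays, and 7 of 7 were higher in the obese mean. The corresponding ranges for 6 macrophage markers were -0.020 to 0.432 on lean and -0.841 to 0.178 on obese arrays, with 6 of 6 lower. Those for 7 T and NK cell markers were 0.006 to 0.591 and -0.798 to -0.016, with 7 of 7 lower. Mast cell markers, 5 of 5 lower at a median of -0.838, ran from 0.078 to 0.745 on lean and from -0.654 to 0.104 on obese arrays. Smooth muscle and pericyte markers, 5 of 5 lower at a median of -0.887, ran from -0.308 to 1.156 and from -0.521 to -0.247. Ranges for B cell markers were -0.126 to 0.722 on lean and -0.803 to 0.318 on obese arrays. Endothelial markers ran from -0.008 to 0.158 and from -0.576 to 0.332. Those of the mesothelium ran from -0.042 to 0.052 and from -0.628 to 0.448. Thermogenic adipocyte markers stayed between -0.072 and 0.032 on all arrays. Pancreatic acinar markers averaged 3.774 on lean 14 and -1.129 to -0.451 elsewhere. The 3′ minus 5′ difference of the control probe sets, a measure of RNA quality, averaged 0.79 to 1.10 on lean arrays and 0.98, 0.93 and 1.28 on obese 29, 32 and 42 (exact two-sided permutation p = 0.4, where 0.1 is the smallest possible). The part of cell makeup and of RNA quality in the results that follow was not tested.

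The mitochondrial ribosomal protein genes differed little between obese and lean fat. The median difference, obese minus lean, was -0.02 on the log2 scale, with 35 genes higher and 41 lower and a range from -0.29 to 0.34. None of the 76 passed an adjusted p of 0.05 (limma, Benjamini-Hochberg over 14217 genes), where 0.00703% of all genes did, and the smallest adjusted p was 0.315. At an adjusted p of 0.1 there were again 0, against 0.239% of all genes. The differences of these genes were also smaller than those of the array as a whole. Their median size was 0.077, against 0.121 over all genes, at a median standard error of 0.113 against 0.112. The 95% interval of the difference lay within 1.5-fold in either direction for 71 of 76 genes (93.4%), against 79.8% of all genes.

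**Figure D1:**
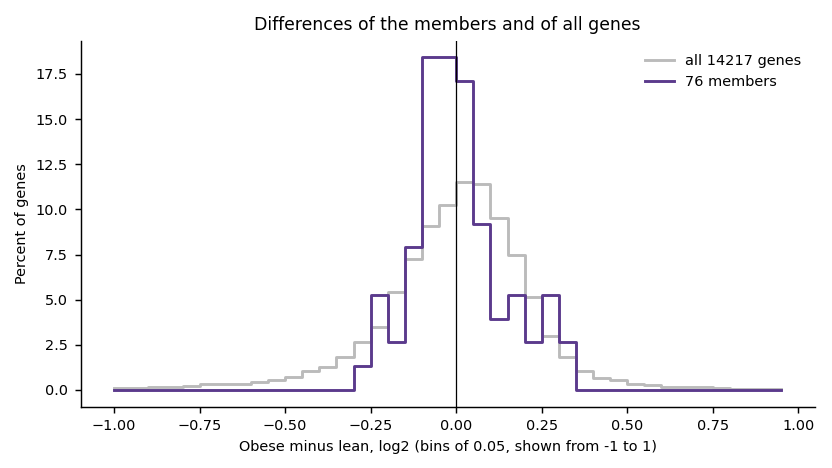
Distribution of the obese minus lean difference (log2, x axis) as percent of genes in bins of 0.05 (y axis), for the 76 mitochondrial ribosomal protein genes and for all 14217 genes. The 76 genes sit in a narrower peak, from -0.29 to 0.34, around a median of -0.02.

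With all 6 arrays, counts by weaker criteria lay below the shares over all genes. An unadjusted limma p under 0.05 was reached by 4 genes that were higher in obese fat (5.26%, against 7.23% of all genes) and by 1 that was lower (1.32%, against 6.18%). Among all genes with such a p, 64.6% were higher after each array was centred on its median and 53.9% without that centring. The 3 obese values lay above the 3 lean values for 6 genes (7.89%, against 12.2%) and below them for 2 (2.63%, against 8.18%).

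These counts of weaker criteria turned on single rats, and the shares over all genes moved with them. Of the higher genes, 1 reached the unadjusted p without lean 14 (1.32%, against 4.16% of all genes in the same fit). None did without lean 19 (against 5.89%) or without obese 32 (against 5.97%), and 2 did without obese 29 (2.63%, against 6.21%). Without lean 18 there were 6 (7.89%, against 4.86%), a share above that of all genes, and without obese 42 there were 3 (3.95%, against 8.11%). Of the lower genes, 0 did without lean 14, 18 or 19 (against 3.86%, 4.15% and 5.56%). Without obese 29 there were 2 (2.63%, against 6.98%) and without obese 32 there were 3 (3.95%, against 4.66%), while 1 did without obese 42 (1.32%, against 7.59%). The obese values stood above the lean ones for 16 genes without lean 18 (21.1%, against 17.1%) and for 19 without obese 42 (25%, against 20%). These shares, unlike those with all arrays, were above those of all genes. Without lean 14 there were 6 such genes (7.89%, against 15.8%), and without lean 19, obese 29 or obese 32 there were 7 in each case (9.21%, against 18.2%, 18.4% and 18.2%). The obese values stood below the lean ones for 13 genes without obese 32 (17.1%, against 11.9%), which was above the share of all genes too. The other counts downwards were below it, with 4 genes without lean 14 (5.26%, against 11.5%), 7 without lean 19 (9.21%, against 14.3%) and 6 without obese 29 (7.89%, against 14.3%). There were 2 without lean 18 and 2 without obese 42 (2.63% each, against 11.9% and 15.5%). Leaving out obese 42 turned the median to 0.065, with 55 genes higher, and leaving out obese 32 moved it to -0.076, with 24 higher.

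**Figure D2:**
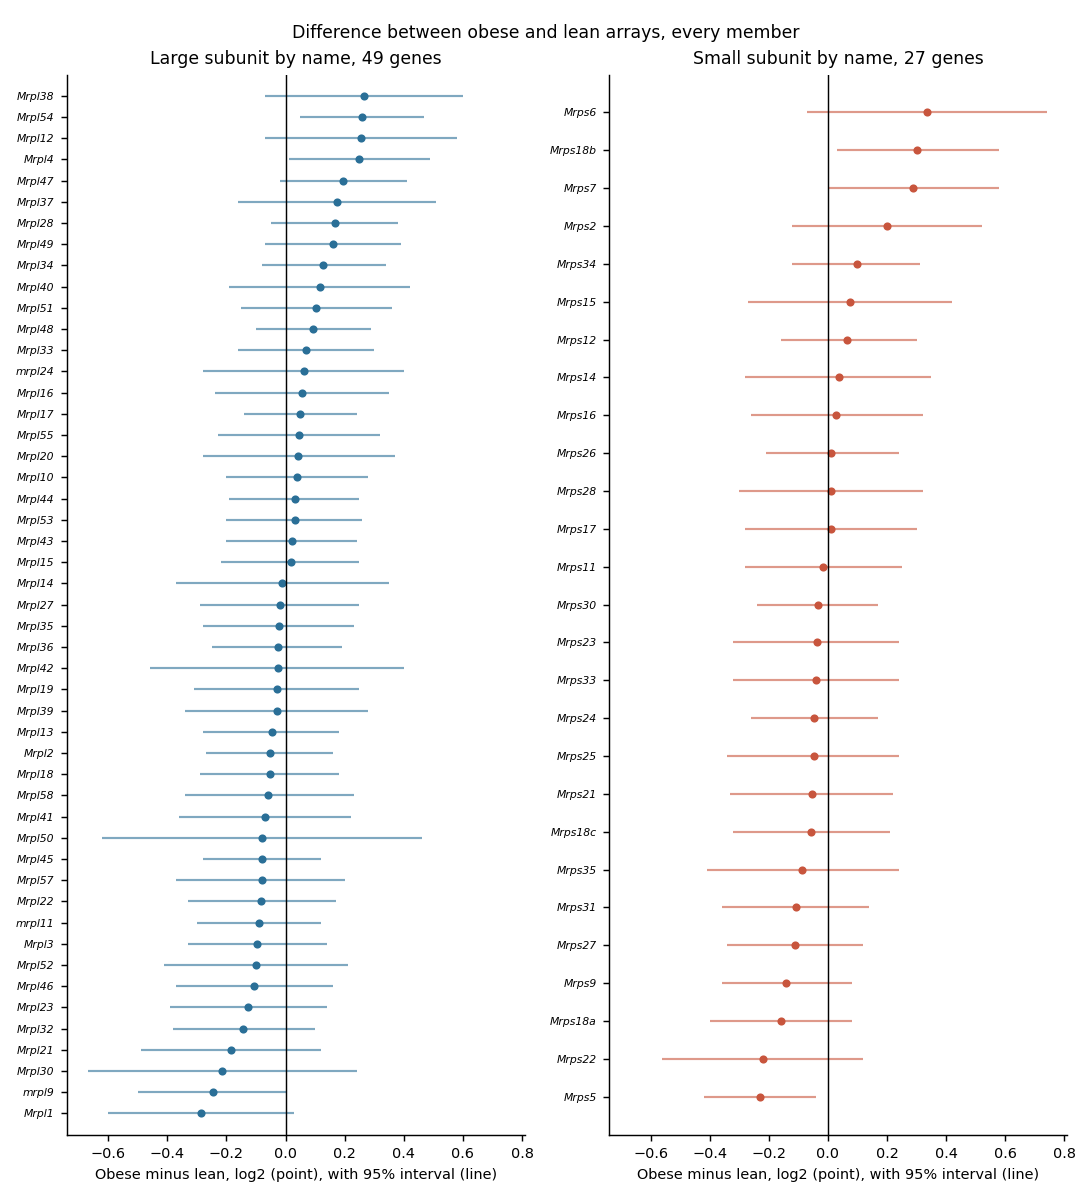
Obese minus lean difference (log2, x axis) of each of the 76 genes (y axis), with points for the estimate, bars for the 95% interval of the limma fit, and the subunits set apart. Most intervals cross 0, and 71 of 76 lie within 1.5-fold either way.

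In the large subunit 23 genes were higher and 26 lower, with a median of -0.018 and quartiles of -0.08 and 0.068. In the small subunit 12 were higher and 15 lower, with a median of -0.035 and quartiles of -0.071 and 0.05. Some names do not match the particle: the products of Mrps18a and Mrps30 are found in the large subunit, and moving both gave medians of -0.022 for 51 large and -0.017 for 25 small subunit genes. By descent, the medians were -0.02 for 30 large subunit genes with a bacterial homologue and 0.023 for the 19 specific to mitochondria. In the small subunit they were 0.02 for 16 genes with a bacterial homologue and -0.039 for 11 without one, of which 3 were higher and 8 lower. Regions of the large subunit had medians of -0.018 for 7 genes of the central protuberance and 0.002 for a list of 8 genes around the polypeptide exit tunnel. Mrpl4, described below, was not on the list for the tunnel. The median was 0.04 for 5 genes of the stalk and its base, where the translation factors dock, with 4 higher and 1 lower. Lean 14 was the lowest of the 6 arrays for 4 of these 5 (80%, against 20.4% of all genes), at a mean deviation of -0.147. Obese 42 was lowest for 0 of them (against 20.3% of all genes), at a mean deviation of 0.002. Mrpl10 of this list, picked after its values were seen, read 8.18 on both lean 14 and obese 42. Its second probe set was lowest on obese 42 (7.26, against 7.95 on lean 14), at a difference of -0.21. The counts for these 5 genes thus depend on the probe set used.

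Among large subunit genes, Mrpl54, counted with the stalk, had the smallest unadjusted p. Its level was 9.44, 9.66 and 9.52 on lean 14, 18 and 19 and 9.82, 9.81 and 9.77 on obese 29, 32 and 42. Every obese value lay above every lean value, and the difference of 0.26 (SE 0.090, limma adjusted p = 0.315) did not pass the test. Mrpl4, whose bacterial counterpart lines the exit tunnel, stood at 8.80, 9.09 and 8.99 in lean and 9.19, 9.16 and 9.27 in obese rats. Its groups did not overlap either, at a difference of 0.25 (SE 0.101, adjusted p = 0.361). Mrpl47, the counterpart of bacterial L29 near the tunnel exit, stood at 6.63, 6.64 and 6.50 in lean and 6.69, 6.86 and 6.81 in obese rats. These groups were narrowly apart, at 0.19 (SE 0.0908, adjusted p = 0.409). The other large subunit genes with separate groups upwards, Mrpl28 (0.17) and Mrpl48 (0.09), were singled out after their values were seen.

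Mrpl12, also singled out after its values were seen, encodes the stalk protein that in addition binds the mitochondrial RNA polymerase. The probe set that stood for it read 8.93, 9.38 and 9.24 in lean and 9.27, 9.55 and 9.48 in obese rats, with overlap and a difference of 0.25. Its second, dimmer probe set read 5.34, 5.27 and 5.29 against 5.51, 5.72 and 5.73. There the groups were separate and the difference was 0.35 (SE 0.093, adjusted p over probe sets 0.296).

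Of the 26 large subunit genes that were lower, mrpl9 and Mrpl1 were among the 6 lower genes with the smallest unadjusted p. The level of mrpl9, spelled in lower case in the annotation, was 8.87, 8.85 and 8.93 in lean and 8.80, 8.47 and 8.64 in obese rats. Its groups did not overlap, and the difference was -0.25 (SE 0.106, limma adjusted p = 0.374). Mrpl1, of the mobile L1 stalk that guides spent tRNA out of the ribosome, stood at 8.03, 8.21 and 8.14 in lean and 8.08, 7.85 and 7.59 in obese rats. Obese 29 lay within the lean range and obese 42 lowest, at a difference of -0.29 (SE 0.133, adjusted p = 0.403). Mrpl50, specific to mitochondria, had the widest range among the ribosomal protein genes named here, at 8.64, 8.60 and 8.45 in lean and 8.53, 8.96 and 7.96 in obese rats. Its obese values held both the highest and the lowest of the 6, and the difference was -0.08 (SE 0.231), or 0.184 without obese 42.

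Of the 12 small subunit genes that were higher, 3 were among the 6 higher genes with the smallest unadjusted p. Mrps18b, 1 of 3 paralogues of bacterial S18, stood at 8.65, 8.62 and 8.36 in lean and 8.70, 8.96 and 8.88 in obese rats. Its groups did not overlap, and the difference was 0.30 (SE 0.117, limma adjusted p = 0.346). Mrps7, a protein of the head of the subunit, stood at 9.89, 10.13 and 9.95 in lean and 10.34, 10.43 and 10.07 in obese rats. Obese 42 lay among the lean values, at a difference of 0.29 (SE 0.123, adjusted p = 0.372). Mrps6 had the largest difference of all 76 genes, 0.34 (SE 0.174, adjusted p = 0.442), with 8.02, 8.30 and 8.24 in lean and 8.48, 8.88 and 8.22 in obese rats. Obese 42 again lay among the lean values, and obese 32 was far above the rest.

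Mrps5, the counterpart of the bacterial protein at the mRNA entry, was the small subunit gene with separate groups downwards. It stood at 7.58, 7.65 and 7.58 in lean (7.60 ± 0.037, SD, n = 3) and 7.30, 7.40 and 7.42 in obese rats (7.37 ± 0.067, SD, n = 3). The difference was -0.23 (SE 0.0821), with a limma adjusted p of 0.321, so that it did not pass the test. Mrps22, specific to mitochondria, stood at 8.19, 8.20 and 8.17 in lean and 7.84, 8.30 and 7.76 in obese rats. The lean values were close together and the obese values lay on both sides of them, at -0.22 (SE 0.146, adjusted p = 0.538). For Mrps9, of the head, the difference was -0.14 (SE 0.0924, adjusted p = 0.534). The other S18 paralogues gave -0.16 (SE 0.102) for Mrps18a, whose product sits in the large subunit, and -0.06 (SE 0.114) for Mrps18c, with overlap in both. Mrps18a read 8.36, 8.45 and 8.24 in lean and 8.10, 8.33 and 8.14 in obese rats, and Mrps18c 6.42, 6.64 and 6.53 against 6.47, 6.64 and 6.31. Whether the 3 paralogues differ from each other in their response was not tested.

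**Figure D3:**
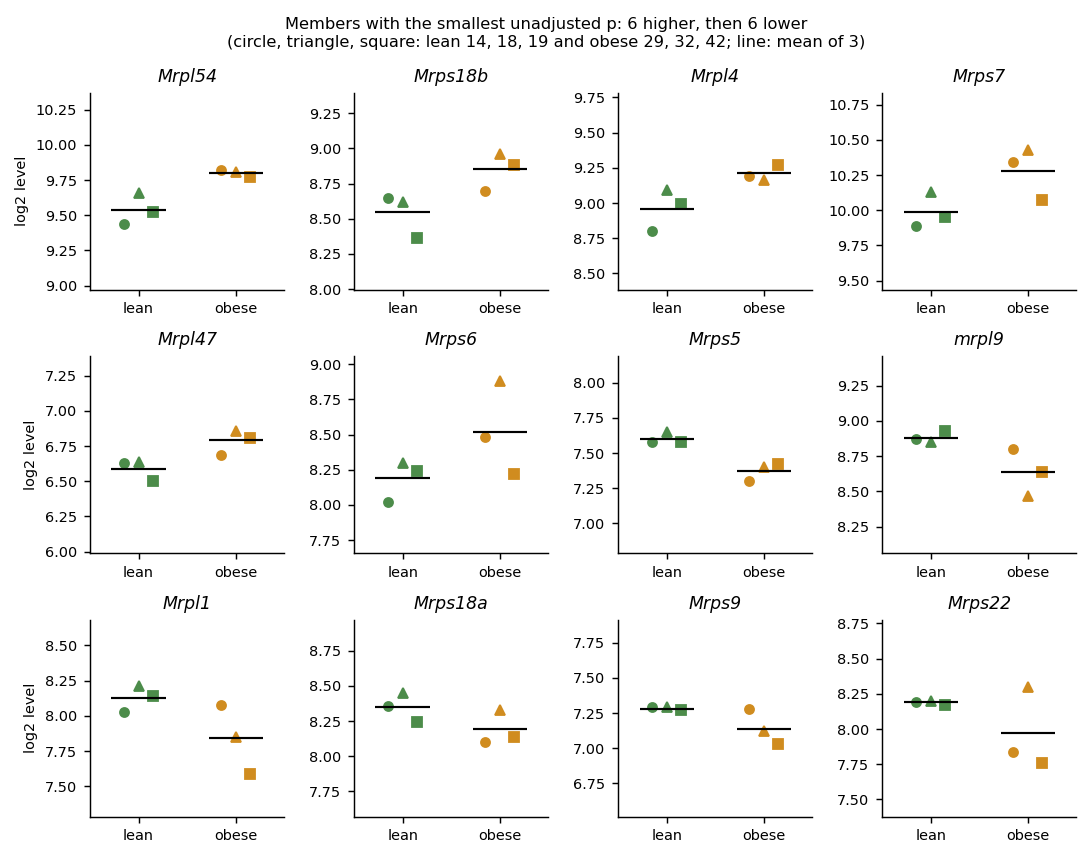
Log2 level (y axis) of the 6 higher and 6 lower genes with the smallest unadjusted limma p, with points for single rats. The 6 arrays are shown with lean and obese rats set apart. Mrpl54, Mrpl4, Mrpl47 and Mrps18b have all obese points above the lean ones, and Mrps5 and mrpl9 have them below.

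The widest common variation lay among the obese rats. As a mean deviation from each gene's mean over 6 arrays, the 76 genes stood at -0.035, 0.061 and -0.032 on lean 14, 18 and 19 and at 0.021, 0.124 and -0.139 on obese 29, 32 and 42. Over all genes these means ran from -0.014 to 0.011, but normalization holds them near 0, so they are no yardstick for a list. Of the lists described further on, 13 translation factors ran from -0.177 to 0.133 and 11 nuclear regulators from -0.125 to 0.142. The range was -0.111 to 0.054 for 16 synthetases and amidotransferase subunits. It was -0.064 to 0.049 for 12 transcription and maintenance genes and -0.035 to 0.031 for 23 assembly genes. Obese 42 was the lowest of the 6 arrays for 46 of the 76 genes (60.5%, against 20.3% of all genes), and obese 32 was the highest for 42 (55.3%, against 19.9%). Between these arrays, obese 32 was the higher for 68 genes (89.5%, against 48.2%), with a median gap of 0.255. Lean 14 was lowest for 16 (21.1%, against 20.4%), of which 13 belonged to the large subunit. These shares describe 1 rat each and carry no test. After quantile normalization of the arrays, obese 42 was lowest for 39 genes (51.3%, against 19.9%) and obese 32 highest for 45 (59.2%, against 20.3%). Obese 42 also had the largest mean 3′ minus 5′ control difference, 1.28. The controls for GAPDH (0.82) and beta-actin (1.98) were highest on it, while that for Hexokinase (1.04) was the lowest of the 6 arrays. Obese 42 had the lowest macrophage markers, -0.841, and the highest endothelial markers, 0.332. It alone is not marked as a re-analysis of an earlier sample. Obese 32 had a control difference of 0.93, the highest adipocyte markers, 0.382, and the lowest T and NK cell markers, -0.798. It also had the lowest B cell (-0.803), mesothelial (-0.628) and mast cell markers (-0.654, against -0.651 on obese 42). Their part in the variation was not tested.

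**Figure D4:**
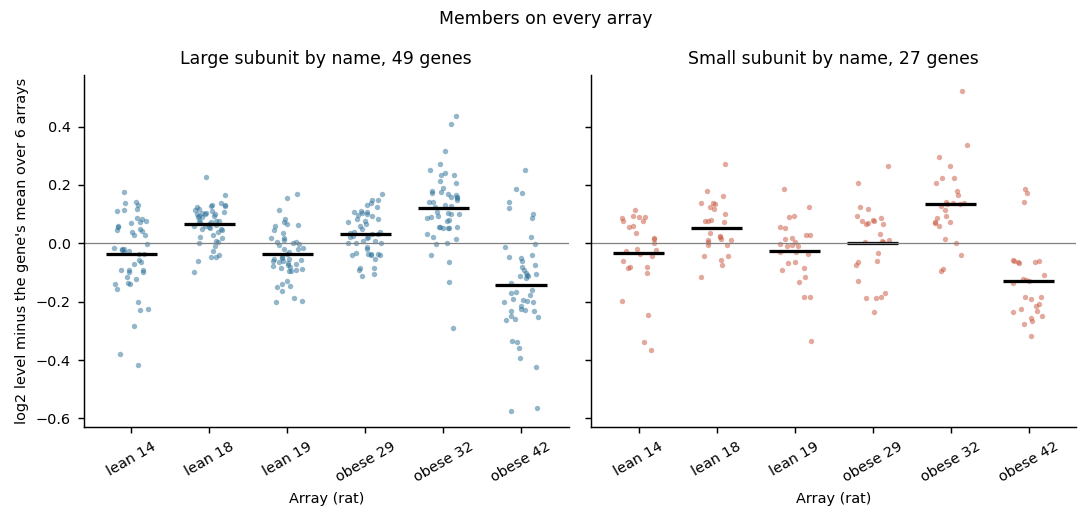
Log2 level minus the gene's mean over the 6 arrays (y axis) on each array (x axis), 1 point for each of 49 large and 27 small subunit genes, with the mean as a bar. Both subunits are highest on obese 32 and lowest on obese 42.

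The subunit means kept step on every array, while counts of the lowest array differed more. Obese 29 was lowest for 5 of 27 small subunit genes (18.5%) and 1 of 49 large ones (2.04%), against 14.6% of all genes. The large subunit mean deviation was -0.036, 0.064 and -0.036 on the lean arrays, against -0.033, 0.054 and -0.025 for the small subunit. On obese 29, 32 and 42 it was 0.032, 0.119 and -0.143, against 0.002, 0.133 and -0.131. The gap between the subunit means was thus at most 0.03 on any array. The divergent pair Mrpl46 and Mrps11, whose shared start region is printed above and which was picked after its values were seen, had this shape too. Mrpl46 read 7.37, 7.32 and 7.37 in lean and 7.26, 7.43 and 7.04 in obese rats. Mrps11 read 7.43, 7.67 and 7.53 in lean and 7.46, 7.70 and 7.41 in obese rats. Both were highest on obese 32 and lowest on obese 42, and their differences between the diets were -0.11 and -0.02.

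**Figure D5:**
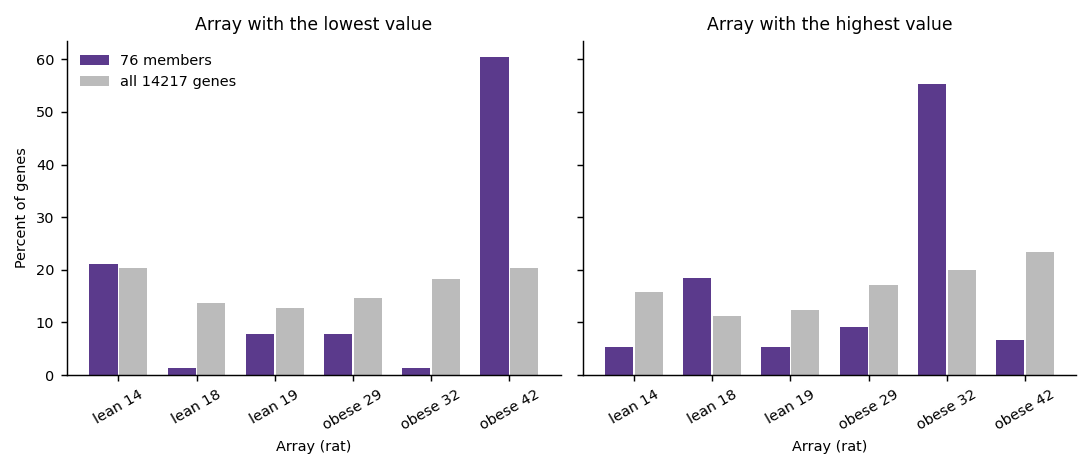
Percent of genes (y axis) for which each array (x axis) was the lowest or the highest of the 6, for the 76 mitochondrial ribosomal protein genes and for all genes. The tallest bars are obese 42 as the lowest (60.5%) and obese 32 as the highest (55.3%).

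The 100 probe sets gave 0 calls, against 0.00966% of all 31042, and a median difference of -0.002. An unadjusted p under 0.05 was reached by 4 that were higher (4%, against 6.5%) and 1 that was lower (1%, against 5.33%). Their groups were separate upwards for 7 (7%, against 11.8%) and downwards for 4 (4%, against 7.02%). Of 18 genes read by several probe sets, 9 had the same sign in all and 9 did not. Mrpl50 read -0.08 with its brighter and 0.24 with its second probe set, and on obese 42 these lay -0.56 and -0.06 from their own means. Mrpl52, picked after its values were seen, read -0.10 and 0.14 with 2 bright probe sets. On obese 42 these lay -0.34 and 0.34 from their own means. Over all 100 probe sets, obese 42 was the lowest array for 54 (54%, against 23.4% of all probe sets). The probe sets of Mrps18c read -0.06, -0.27 and 0.18, and those of Mrps22 -0.22 and 0.10. The last of each lay below the arrays' lower quartile on all 6 arrays, so its sign says little about the gene.

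A list of 7 ribosomal proteins known under other names, Dap3 and Ptcd3 among them, gave 2 higher and 5 lower with a median of -0.058. It held Mrpl57 and Mrpl58, which are also among the 76 genes. The 13 measured mitochondrial translation factors gave 5 higher and 8 lower, with a median of -0.049 and 0 of 13 at an unadjusted p under 0.05, which 13.4% of all genes reached in either direction. The lowest was the release factor Mtrf1l, at -0.34 (SE 0.165, limma adjusted p = 0.415). The initiation factor Mtif2 read -0.21 (adjusted p = 0.445) and the elongation factor Tsfm 0.18 (adjusted p = 0.448). Their means over the arrays also ran high on obese 32, at 0.133, and low on obese 42, at -0.177. Other related lists did not share the low value on obese 42: the means there were 0.054 for the synthetases, -0.013 for assembly genes, -0.01 for transcription and genome maintenance and 0.142 for the nuclear regulators described further on. The 16 measured aminoacyl-tRNA synthetases and amidotransferase subunits, which charge the tRNAs, gave 8 higher and 8 lower with a median of -0.007. Ears2, the glutamyl-tRNA synthetase, read 0.25 (adjusted p = 0.315) with separate groups, as did Gatc, of the amidotransferase, at 0.27 (adjusted p = 0.428). Wars2, for tryptophan, read -0.22 (adjusted p = 0.483).

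Of 23 measured genes for ribosome assembly and rRNA modification, 11 were higher and 12 lower, with a median of -0.016. The rRNA methyltransferase Nsun4 read -0.27 (SE 0.1, limma adjusted p = 0.334), with separate groups. The helicase Ddx28 read 0.24 (adjusted p = 0.399) and Mterf3 0.18 (adjusted p = 0.415), both with separate groups upwards. The mean of all Ddx28 probe sets turned its sign, to -0.027. Of 12 genes for mitochondrial transcription and genome maintenance, 5 were higher and 7 lower with a median of -0.025. The factor Mterf1 read -0.20 (SE 0.0816, adjusted p = 0.361), the initiation factor Tfb2m 0.11 (adjusted p = 0.656) and the RNA polymerase Polrmt 0.13 (adjusted p = 0.662). Without lean 14 and obese 42 the sign of Polrmt turned, to -0.022.

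The 11 nuclear regulators of mitochondrial genes varied more widely, with 5 higher, 6 lower, a median of -0.013 and quartiles of -0.156 and 0.242. Esrra, an orphan nuclear receptor that works with the PGC-1 coactivators, stood at 6.81, 6.80 and 6.92 in lean and 7.07, 7.22 and 7.39 in obese rats. Its groups were separate, at 0.38 (SE 0.106, limma adjusted p = 0.254), without passing the test. The coactivator Ppargc1b stood at 5.96, 6.04 and 5.89 in lean and 6.29, 6.32 and 7.04 in obese rats, with obese 42 far above the others. The difference was 0.59 (SE 0.198, adjusted p = 0.306). Pprc1, a related coactivator, stood at 6.88, 6.88 and 6.91 in lean and 7.00, 7.18 and 7.28 in obese rats, again separate, at 0.27 (SE 0.0977, adjusted p = 0.330). Ppargc1a, named after its values were seen, read -0.34 (SE 0.205, adjusted p = 0.499) with overlap. Esrra, Ppargc1b and Pprc1 were all highest on obese 42, the array on which most of the ribosomal protein genes were lowest. Of the 11 regulators, 6 were highest on obese 42 (54.5%, against 23.3% of all genes) and 2 were lowest there (18.2%, against 20.3%). The 2 were Ppargc1a, at 5.05, and Gabpa, named after its values were seen, at 7.24. A relation between the regulators and the ribosomal protein genes was not tested. COX1 and COX2, looked up after the values were seen, are translated by the mitochondrial ribosome. They read 13.67 to 13.90 on all arrays, near the top of the scale, and differed by 0.0 (SE 0.084) and 0.025 (SE 0.0847).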

How the data were processed

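Gene expression was measured in peripancreatic fat of 3 lean and 3 obese rats. The values the authors deposited are on the log2 scale; the submitters' processing notes name RMA and affy. The sources used here do not give their versions, the chip definition or the set of arrays normalized as one. Of 31042 probe sets that are no controls, 20826 carried 1 symbol, 436 several and 9780 none. For each of 14217 genes the probe set brightest on average was used, with no filter on dim ones. The diets were compared by lmFit and eBayes of limma 3.58.1 (R 4.3.3), two-sided and without covariates, with Benjamini-Hochberg adjustment over all genes and a threshold of 0.05. A probe set fit was adjusted over all probe sets. The script was tested on simulated data. Tables and plots used Python 3.11.15, pandas 2.3.3, scipy 1.17.1 and matplotlib 3.10.9.

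The genes and gene lists were chosen with earlier results of these data known. Named were the 6 higher and 6 lower genes with the smallest unadjusted p, genes whose probe sets differed in sign by over 0.3, the S18 paralogues, and up to 3 genes of each other list. Others are stated to have been chosen after their values were seen. Alternatives were median centring, quantile normalization, a filter at the median level, other choices of probe set, a trended robust prior, array weights and leaving out arrays. Lengths and charges of the proteins were not computed, because no protein table was used here.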

Additional observations from a re-analysis of the deposited data

How the results depend on the processing

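No adjusted p under 0.05 was reached by any of the 76 genes in any setting run, and for 19 of those named the smallest was 0.202. The count over all genes, 1 as reported, was 0 with median centring, 2 with probe sets averaged by gene, 9 with array weights, 3 over probe sets, 34 at an adjusted p of 0.1, 0 without lean 14 and obese 42, and 0 to 34 with 1 rat left out. Genes higher at an unadjusted p under 0.05, 4 as reported, numbered 2 with array weights, 2 without that pair and 0 to 6 with 1 rat left out; genes lower, 1 as reported, numbered 2 with the mean of probe sets, 0 without the pair and 0 to 3. Separate groups upwards, 6 as reported, numbered 24 without the pair (31.6%, against 24.9% of all genes) and 6 to 19; downwards, 2 as reported, 4 without the pair (5.26%, against 21.1%), 4 over probe sets (4%, against 7.02%) and 2 to 13. The share of genes with separate groups grows over the whole array when arrays are left out. The median of all 76 genes ran from -0.076 to 0.065 with 1 rat left out, that of the large subunit from -0.063 to 0.064 and that of the small subunit from -0.087 to 0.066. Signs turned for Mrpl50 (0.081 with the mean of probe sets, 0.008 with array weights, 0.184 without obese 42, 0.221 without the pair), Mrps18c (0.025 without obese 42), Mrpl46 (0.007 without the pair), Mrps11 (0.008 with median centring, 0.022 with quantile normalization, 0.049, 0.015 and 0.041 without lean 18, obese 29 and obese 42), Ddx28 (-0.027 with the mean of probe sets) and Polrmt (-0.022 without the pair). With 1 rat left out these differences reached as low as -0.315 (Mrpl50), -0.139 (Mrps18c) and -0.106 (Mrps11). The cause was not tested. Alternatives for which array was lowest or highest were chosen after seeing the data, and these counts stayed within 1.5 times the reported ones. No paired analysis was possible because the groups share no replicate number.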
